A study of Mus musculus with 24 samples.

Results

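The genes of oxidative phosphorylation were followed in the prefrontal cortex (PFC) of male C57BL/6 mice, a brain region that regulates emotion and the stress response. Members were the genes of the count table whose symbol starts with mt- or names a subunit or assembly factor of complexes I to V (Nduf, Sdha to Sdhd, Uqcr, Cox4 to Cox8 and Atp5), without the 2 symbols marked as pseudogenes. The rule gave 121 of 14074 genes. Of these, 90 are nuclear genes on 19 chromosomes, with 38 subunits of complex I, 8 complex I assembly factors, 4 genes of complex II, 8 of complex III, 15 of complex IV and 17 of complex V. The other 31 are mitochondrially encoded, with 13 protein genes, 2 rRNA genes and 16 tRNA genes.

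Each of 6 groups held 4 mice, and each mouse gave 1 poly(A) RNA-seq library. Control mice were not stressed. The other mice went through 30 days of chronic social defeat and were sorted by their behaviour into a passive coping strategy (PS, labelled dep1) and an active coping strategy (AS, labelled dep2). Mice of all 3 kinds received saline or 2 mg/kg dexamethasone (DEX), a synthetic agonist of the glucocorticoid receptor, and the tissue was taken 6 h later. PS and AS are classes of behaviour within stressed animals of a single strain and sex, so that the coping style was not assigned by the experimenter. The comparisons ask whether oxidative phosphorylation genes differed with stress and coping style, and whether their response to DEX did.

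Oxidative phosphorylation passes electrons from NADH and succinate through complexes I to IV to oxygen, and complex V uses the resulting proton gradient to make ATP. Complex II is made from nuclear genes alone, while the other complexes combine subunits from the nucleus with a few that are transcribed and translated inside the mitochondrion. The mitochondrial genome is read from both strands as long transcripts that are cut into mRNAs, rRNAs and tRNAs, and neurons depend on this system for most of their ATP.

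The sequences of the mitochondrial genes matter here because part of the mitochondrial genome also stands in chromosome 1. In the GENCODE M21 annotation of mm10, 7 pseudogenes in a row match mitochondrial genes. The first example is mt-Nd4l, a complex I subunit gene at chrM:9877-10173 on the plus strand. Its first 294 bases, printed here because all 294 are the same in the pseudogene Gm10222 (chr1:24612407-24612700, minus strand), so that no read inside them can be placed by sequence, are as follows.
mt-Nd4l: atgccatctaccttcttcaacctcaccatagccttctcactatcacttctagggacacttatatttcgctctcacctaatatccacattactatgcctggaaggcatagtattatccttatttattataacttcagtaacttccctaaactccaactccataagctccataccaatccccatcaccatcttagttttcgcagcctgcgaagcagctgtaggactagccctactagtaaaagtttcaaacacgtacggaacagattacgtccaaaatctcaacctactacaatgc
The second example is mt-Nd3, where the copy Gm28438 differs at 1 of 345 bases, T3C with positions counted from the first base of the gene. The first 60 bases of both are shown with that base in capitals.
mt-Nd3: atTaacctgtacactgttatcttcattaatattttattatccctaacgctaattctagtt
Gm28438: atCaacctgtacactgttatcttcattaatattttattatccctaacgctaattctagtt
The copies of mt-Co2, mt-Atp6 and mt-Co3 were identical over 681, 678 and 783 bases, and that of mt-Nd4 over 876 of its 1378 bases. The copy of mt-Co1 covered 492 of 1545 bases with 6 mismatches. mt-Atp8, which overlaps mt-Atp6, has no annotated copy of its own and lies between copied genes.

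Levels followed this map. Per kb of transcript, mt-Co1, the catalytic subunit of complex IV, averaged 295148 normalized counts over the 24 libraries and was the highest gene in the table. mt-Cytb, the mitochondrial subunit of complex III, reached 195037 per kb, mt-Nd1 157867 and mt-Nd2 127569. The 6 genes with a whole copy or between copies were far lower, with 3100 per kb for mt-Co2, 3012 for mt-Atp6, 1690 for mt-Co3, 1219 for mt-Nd3, 984 for mt-Nd4l and 344 for mt-Atp8. Their pseudogenes held more counts than they did: Gm28661 had 7.41 times the mean count of mt-Co2, Gm10925 had 8.70 times that of mt-Atp6, Gm28437 had 9.82 times that of mt-Co3 and Gm10222 had 7.52 times that of mt-Nd4l. Counts of these 6 genes are therefore uncertain, since reads with more than 1 best position may have been split or left out. mt-Nd6, the sole protein gene of the minus strand, was also low at 6470 per kb and has no copy in this stretch. Among the 90 nuclear members, 3 shared at least 50% of their 25-base words with an annotated pseudogene, and only Atp5l did so with a pseudogene present in the table.

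**Figure D1:**
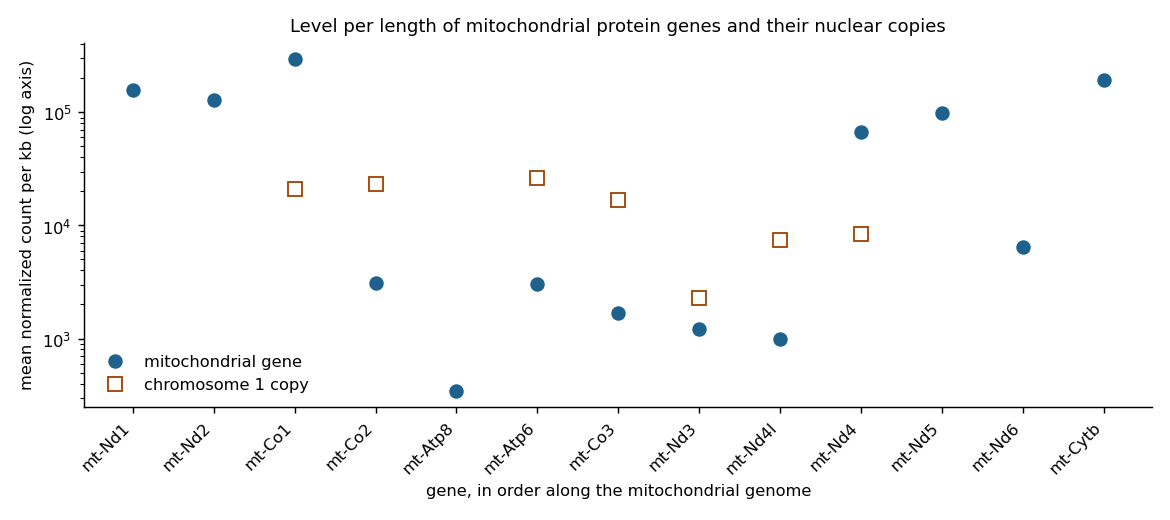
Mean normalized count per kb over 24 libraries (log axis) of the 13 mitochondrial protein genes in genome order, with the copy on chromosome 1 where 1 is annotated. The genes from mt-Co2 to mt-Nd4l lie between 344 and 3100 per kb and, where a copy is annotated, below it, while mt-Co1 and mt-Nd4, copied in part, lie above theirs.

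Nuclear members were expressed in every group. Atp5b, the catalytic beta subunit of complex V (chr10:128083273-128090391), was the highest per kb at 12940 normalized counts, followed by Cox4i1 at 12476 and Cox8a at 11810, both subunits of complex IV. Among the genes placed in complex I by their symbol, the highest level per kb was that of Ndufa4 (6122), whose product is also found with complex IV. The lowest was that of Ndufb2 (63.6), which rests on a transcript of 4371 bases. Its mean count of 278 was above the 67.2 of Ndufa4l2. Sdha, the flavoprotein that oxidises succinate, led complex II at 3179 per kb against 617.5 for the membrane anchor Sdhc. Uqcrh, a small acidic subunit, led complex III at 4369 per kb, and Uqcrq was its lowest member per kb at 1322. That rank rests on a transcript of 1521 bases, and by mean count Uqcrq (2011) was above Uqcrb (1047). Alternative isoforms were low. Per kb, Cox4i2 reached 61.4, Cox6a2 160.8, Cox6b2 69.1, Cox7a1 34.4 and Ndufa4l2 72.0, against 8717 for Cox6a1, 6012 for Cox6b1 and 2505 for Cox7a2. Selection for poly(A) is not designed to catch tRNAs, and 10 of the 16 tRNA genes had under 10 reads in at least 1 library, as had the nuclear gene Cox7a1.

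Depth ranged from 21121869 to 59439645 reads on genes per library, with the AS libraries deeper on average than the others. Dexamethasone labels were borne out by its targets: of 5 genes of the glucocorticoid receptor list, 3 rose with DEX in controls, 4 in PS mice and 3 in AS mice, with Fkbp5 at log2 fold changes of 2.26, 2.00 and 1.91 (limma, adjusted over all genes). Nr3c1, the receptor gene itself, fell by 0.50 in controls and 0.38 in PS mice. Markers of pyramidal neurons summed to between 211945 and 289253 normalized counts in every library, and none of the 9 was at 0. Mice are separate animals, so that p-values measure the spread between them. Fewer cells of a type and less RNA per cell cannot be told apart in such tissue samples.

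Reads on the members made up a median of 5.97% of reads on genes. The mitochondrial protein genes took 4.26%, 4.32%, 4.11% and 4.17% in the 4 control saline libraries and 5.91%, 5.01%, 4.42% and 4.73% in the control DEX libraries. All 4 control DEX libraries lay above all 4 control saline libraries. In PS mice the order was the other way in value, with 4.46%, 4.28%, 4.05% and 4.62% under saline and 3.71%, 3.76%, 3.92% and 4.32% under DEX, and these groups overlapped. AS mice spread most, from 3.82% to 5.33% under saline and from 3.66% to 5.61% under DEX. The nuclear members took between 0.700% and 1.01% of reads, and here the control DEX libraries (0.789%, 0.716%, 0.749% and 0.700%) overlapped the control saline libraries (0.789%, 0.757%, 0.743% and 0.876%). The ratio of mitochondrial protein to nuclear reads was 4.77 to 5.71 under saline and 5.91 to 7.49 under DEX in controls, which do not overlap, against 4.76 to 5.91 and 4.03 to 5.42 in PS mice.

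**Figure D2:**
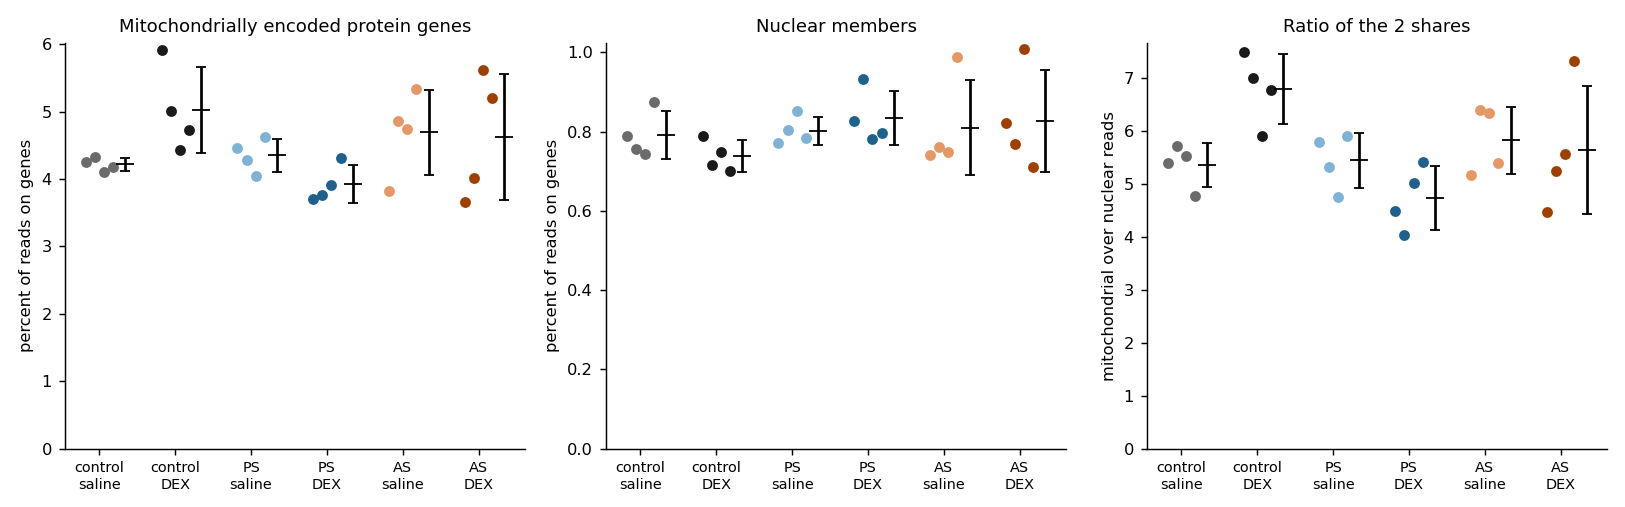
Percent of reads on genes that fell on mitochondrial protein genes (left) and on nuclear members (middle), and their ratio (right), for each library by group. Points are libraries and bars are mean ± SD of 4. The ratio of all 4 control DEX libraries is above that of all 4 control saline libraries.

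A set of 3 libraries stood apart in the nuclear members. The mean level of the 90 genes, as log2 value centred on all libraries, was 0.36 in the library of AS DEX mouse 60, 0.30 in AS saline 44 and 0.22 in PS DEX 34, while the other 21 ranged from -0.19 to 0.13. The first of these also led in complexes I, III, IV and V. The same 3 libraries were the highest of 24 for the 77 mitochondrial ribosomal protein genes, at 0.28, 0.22 and 0.19 with the others at most 0.08, and for the 92 genes named Rpl or Rps, mostly cytosolic ribosomal proteins but with a few kinases of the Rps6k family, at 0.27, 0.25 and 0.22 with the others at most 0.16. The mitochondrial protein genes did not share this order: AS DEX 60 and AS saline 44 were at 0.27 and 0.21, PS DEX 34 at -0.19, and the highest value of all, 0.29, was that of control DEX 101. Astrocyte markers were at -0.21, -0.09 and -0.13 in these libraries and GABAergic neuron markers at 0.23, 0.08 and 0.20; their part in the level of the members was not tested.

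**Figure D3:**
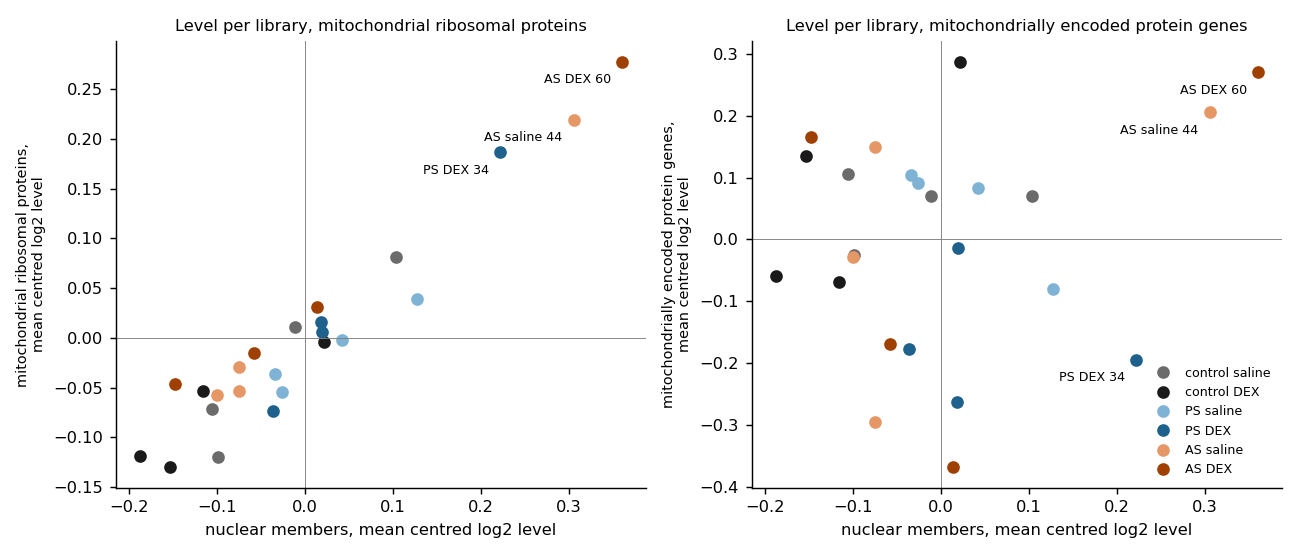
Mean centred log2 level of the nuclear members (x) against that of the mitochondrial ribosomal protein genes (left) and of the mitochondrial protein genes (right), 1 point per library. AS DEX 60, AS saline 44 and PS DEX 34 lie at the top right on the left panel, but PS DEX 34 falls to -0.19 on the right panel.

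Under saline, few members differed between PS and control mice. By limma at an adjusted p under 0.1, 2 of 121 members were called (1.65%), near the 1.51% of all genes tested, and neither was called without PS saline 2. Both are tRNA genes that rose. They are mt-Te, the tRNA for glutamate at chrM:14071-14139, and mt-Tp, the tRNA for proline at chrM:15356-15422. Both are on the minus strand, with 5 other tRNA genes and mt-Nd6, and mt-Te lies directly next to mt-Nd6, with 0 bases between them. Their sequences, read on that strand, are shown because they carry the only calls of this comparison.
mt-Te: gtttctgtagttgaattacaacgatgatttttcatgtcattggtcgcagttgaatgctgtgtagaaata
mt-Tp: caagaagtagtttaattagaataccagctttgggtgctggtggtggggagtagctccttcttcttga
mt-Te had 6.75, 14.8, 7.92 and 15.3 normalized counts in control saline libraries and 38.2, 29.0, 20.5 and 30.5 in PS saline libraries. The groups did not overlap, and the log2 fold change was 1.37 ± 0.28 (SE, adjusted p = 0.018). Its counts were low, from 5 to 62 reads per library. mt-Tp had 60.7, 52.9, 67.9 and 66.9 in control saline and 159, 130, 146 and 87.2 in PS saline libraries, with a log2 fold change of 1.03 ± 0.23 (adjusted p = 0.032). Again every PS library was above every control library, with the lowest PS value in mouse 68. edgeR and DESeq2 on recovered reads called both. Without PS saline mouse 2 neither was called (adjusted p = 0.10 for mt-Te and 0.16 for mt-Tp), and without control saline 107 the adjusted p of mt-Tp was 0.11.

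In AS mice the same tRNAs were higher than in controls in value, at log2 fold changes of 1.12 for mt-Te and 0.75 for mt-Tp under saline, but neither was called (adjusted p = 0.17 and 0.24). The AS saline libraries had 16.5, 25.3, 27.9 and 28.9 normalized counts of mt-Te, all above the control saline libraries. PS and AS saline comparisons share the control saline libraries, which held 4 of the 5 lowest values of both mt-Te and mt-Tp among the 24 libraries. No other minus-strand member was called, and mt-Nd6, next to mt-Te, had a log2 fold change of 0.12 in PS and 0.16 in AS mice. At an unadjusted p under 0.05 limma gave 20 members for PS against control, or 16.5% of members against 13.1% of all genes, of which 16 were higher in PS. For AS against control, limma called 0 members (0.156% of all genes), edgeR 0 and DESeq2 0, with 10 at an unadjusted p under 0.05 (11.0% of all genes). Between AS and PS under saline, limma called 0 members (0% of all genes), edgeR 0 and DESeq2 0, with 4 at an unadjusted p under 0.05 (4.77% of all genes).

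**Figure D4:**
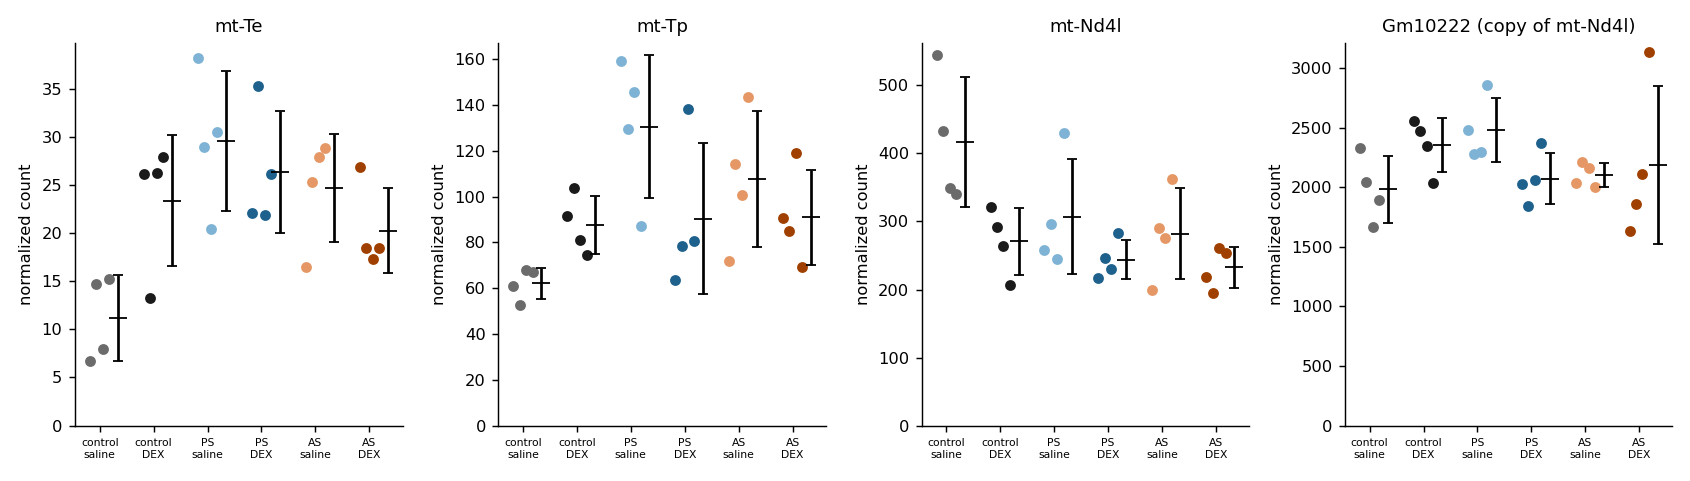
Normalized counts of mt-Te, mt-Tp, mt-Nd4l and its chromosome 1 copy Gm10222 in each library by group, with mean ± SD of 4. Control saline libraries are lowest for both tRNAs against PS saline and highest on average for mt-Nd4l (417), while their mean for Gm10222 (1985) is below that of control DEX (2353).

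The nuclear members showed little difference under saline. Their median log2 fold change was 0.05 for PS against control (0.03 to 0.09 with 1 library left out) and 0.03 for AS against control (-0.06 without AS saline 44), and 58 of 90 were above 0 in each, where 50.6% and 50.9% of all genes were. The largest values for nuclear members in PS mice were those of Ndufa4l2 (-0.49), Cox7a2 (0.42) and Cox6b2 (0.41). Cox7a2, a small subunit of complex IV, had 1417, 1333, 1437 and 1604 normalized counts in control saline and 1916, 1952, 2056 and 1806 in PS saline libraries. Those groups did not overlap, yet its adjusted p was 0.11 by limma, while DESeq2 called it. When AS saline 44 and AS DEX 60 were left out of the shared estimate of spread, an alternative chosen after their values were seen, 10 members were called in PS against control (4.07% of all genes), of which 7 were nuclear and all of those higher in PS, among them Cox7a2, Atp5mpl and Uqcrh. Leaving out those libraries changed no value of the PS or control mice.

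Under DEX in control mice the 7 mitochondrial protein genes without a whole copy on chromosome 1 were higher in value and most nuclear members lower. The 6 mitochondrial genes copied there had a median of -0.18. limma called 4 members of 121, against 6.49% of all genes. mt-Te rose and mt-Nd4l, Ndufa13 and mt-Atp6 fell, and edgeR and DESeq2 called the same 4. A total of 11 members had an unadjusted p under 0.05, or 9.09% against 15.3% of all genes. mt-Te had 26.1, 13.2, 26.2 and 27.9 normalized counts under DEX, which overlaps the control saline range, with a log2 fold change of 1.03 ± 0.28 (adjusted p = 0.035). Ndufa13 (GRIM-19, a complex I subunit at chr8:69894180-69902558) had 1914, 1644, 1569 and 2103 normalized counts under saline and 1589, 1368, 1304 and 1330 under DEX. The groups overlapped narrowly, and it fell by 0.37 ± 0.11 on the log2 scale (adjusted p = 0.071), the sole nuclear member called. Single libraries decided these calls: mt-Te was not called without control saline 106 or 109 or control DEX 101 or 122 (adjusted p from 0.10 to 0.15), and Ndufa13 without control saline 106 or 117 or control DEX 108, 112 or 122 (adjusted p from 0.15 to 0.23).

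The other 2 calls were genes with an identical nuclear copy. mt-Nd4l had 545, 433, 350 and 340 normalized counts under saline and 321, 291, 263 and 207 under DEX, and the groups did not overlap. Its log2 fold change was -0.61 ± 0.19 (adjusted p = 0.063). Gm10222, with the same 294 bases, had 2334, 2047, 1663 and 1897 under saline and 2554, 2475, 2346 and 2037 under DEX, higher in value at a log2 fold change of 0.25. Summed, the pair had a log2 fold change of 0.13 (adjusted p = 0.74), the opposite sign of mt-Nd4l alone. mt-Nd4l was also not called without control saline 106 or 107 or control DEX 112 or 122 (adjusted p from 0.10 to 0.24). mt-Atp6, a membrane subunit of complex V, had 2434, 3701, 3235 and 2024 under saline and 2220, 1887, 1568 and 1916 under DEX, which overlap, with a log2 fold change of -0.56 ± 0.18 (adjusted p = 0.090), and summed with Gm10925 it was at -0.06 (adjusted p = 0.93). mt-Atp6 was not called without control saline 106, 107 or 109, control DEX 108, 112 or 122, PS saline 28, 62 or 68, or AS saline 40 (adjusted p from 0.10 to 0.31). The fall of both genes was seen in the counts placed on the mitochondrial gene and not in the sums. Control saline libraries also stood out in 2 more distant copies on chromosome 2: Gm13340 had 458, 1037, 1212 and 1736 normalized counts there and from 160 to 453 in all other libraries, and Gm13339 had 355, 519, 1026 and 723 there and from 18.2 to 299.7 elsewhere. Gm13340 shared 53.7% of the 25-base words of mt-Co1, and Gm13339 18.1% of those of mt-Nd2. Neither mt-Co1 nor mt-Nd2 has a whole copy on chromosome 1.

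The 7 mitochondrial protein genes with no copy on chromosome 1, or with a copy of only a part there, gave a uniform picture. Under DEX in controls all 7 had log2 fold changes between 0.20 and 0.28, with a median of 0.27 against -0.01 for all genes and -0.09 for the nuclear members. mt-Cytb had 214088, 212697, 204492 and 199529 normalized counts under saline and 299842, 258525, 221967 and 234972 under DEX. These groups did not overlap, but at a log2 fold change of 0.28 ± 0.14 the adjusted p was 0.33. None of the 7 was called. In PS mice all 7 lay between -0.18 and -0.11 for DEX against saline, and in AS mice between -0.27 and 0.09 with 4 above 0. Both rRNA genes had the same signs as these 7 in controls and PS mice, at 0.15 in the median in controls and -0.23 in PS mice.

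Quantile normalization gives each rank the same value in every library, and mitochondrial genes hold 8 of the 12 highest ranks of the table, so that a shift which leaves their ranks as they were cannot be seen with it. The median of the 13 protein genes for DEX in controls was 0.00 under it. The ratio of mitochondrial protein to nuclear reads, which uses no size factor, did not overlap between control saline and control DEX libraries. That ratio moves with either share and leaves out reads placed on the chromosome 1 copies, and its difference was not tested.

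Of the nuclear members, 75 of 90 were below 0 for DEX in controls, where 47.1% of all genes were above 0. All 8 genes of complex III were below 0, as were 33 of 38 complex I subunits, 13 of 15 of complex IV, 12 of 17 of complex V, 3 of 4 of complex II and 6 of 8 assembly factors. Medians were -0.12 in complex I, -0.09 in complex III, -0.07 in complex V, -0.05 in complex IV and -0.03 in complex II. With 1 library left out the nuclear median stayed between -0.13 and -0.05. Ndufa10, an accessory subunit of complex I, was at -0.20 (adjusted p = 0.19). Without AS saline 44 and AS DEX 60 in the shared spread, 10 members were called for DEX in controls (8.40% of all genes), among them Ndufa10, Cox7b, Ndufb8, Ndufv2 and Ndufa1, and these 5 were lower under DEX. Oligodendrocyte markers moved the same way, with a median of -0.31 over 6 genes of which 1 fell, and summed levels of 29477 to 46709 under saline and 25638 to 36871 under DEX; their part in the members' values was not tested.

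DEX in stressed mice gave fewer differences among the members than among all genes. In PS mice limma called 0 members (5.36% of all genes), edgeR 0 and DESeq2 0, and 3 had an unadjusted p under 0.05 (13.6% of all genes). In AS mice the counts were 0 by limma (8.77% of all genes), 0 by edgeR and 0 by DESeq2, with 3 at an unadjusted p under 0.05 (18.2% of all genes). Nuclear medians were 0.04 in PS and 0.05 in AS mice, with 63 and 64 of 90 above 0, and turned to -0.02 without PS DEX 34 and to -0.07 without AS DEX 60. Without AS saline 44 the median in AS mice was 0.15. The strongest mitochondrial value in PS mice was mt-Co3 at -0.53 (adjusted p = 0.19), which is a copied gene.

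In AS mice 2 libraries decided the result for a few complex I and V subunits. Ndufv2, a core subunit of complex I that carries an iron-sulphur cluster (chr17:66078638-66101559), had 2082, 2366, 2294 and 3317 normalized counts in AS saline libraries and 2656, 2796, 3459 and 2674 in AS DEX libraries. Mouse 44 alone was above the DEX libraries except that of mouse 60. With all libraries the log2 fold change was 0.22 (adjusted p = 0.22), and without AS saline 44 it was 0.36 (adjusted p = 0.0026). Without both 44 and 60 it was 0.27 (adjusted p = 0.0033). Control DEX libraries had 2365, 2462, 2384 and 2374 against 2559, 2626, 2604 and 2812 under saline, so that the DEX effect in controls had the opposite sign at -0.14, and the AS by DEX interaction was 0.36 (adjusted p = 0.23), or 0.50 without AS saline 44 (adjusted p = 0.026). Atp5f1, a stalk subunit of complex V, had a DEX effect in AS mice of 0.16 (adjusted p = 0.42), or 0.29 without AS saline 44 (adjusted p = 0.017) and 0.21 without both (adjusted p = 0.042). Without AS DEX 60 alone the DEX effects were 0.13 for Ndufv2 and 0.07 for Atp5f1, and neither was called. Over all alternatives the adjusted p reached 0.63 for Ndufv2 and 0.80 for Atp5f1.

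By nuclear median, PS and AS mice differed most from controls under DEX. For PS against control under DEX, 83 of 90 nuclear members were above 0 with a median of 0.16, where 49.0% of all genes were above 0. The mitochondrial protein genes had a median of -0.31, and all 7 without a whole copy on chromosome 1 lay between -0.42 and -0.26. limma called 0 members (0.199% of all genes) and edgeR 0. DESeq2 called 225 of all 14074 genes, among them 6 members. These were Atp5k, Ndufb6 and Ndufv1 above 0 and mt-Co1, mt-Cytb and mt-Nd5 below 0. At an unadjusted p under 0.05 there were 41 members, or 33.9% against 14.0% of all genes. Of these, 32 were higher and 9 lower in PS mice. The nuclear members rose and fell together between libraries. Within groups, their mean level correlated with that of each complex and of the assembly factors at r from 0.94 to 0.996. Each complex is itself a part of the 90 genes, so that part of this r is built in. With the mitochondrial ribosomal protein genes, which are not members, r within groups was 0.97. Counts of members, here and in the other comparisons, are therefore not counts of independent observations.

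By complex, the median for PS against control under DEX was 0.21 in complex I (37 of 38 above 0), 0.19 in complex III (8 of 8), 0.17 in complex V (16 of 17), 0.12 in complex II (3 of 4), 0.09 in the assembly factors (6 of 8) and 0.05 in complex IV (13 of 15). Ndufv1, the core subunit that takes electrons from NADH (chr19:4007384-4012806), had 3337, 3169, 3436 and 3023 normalized counts in control DEX and 4112, 4525, 3743 and 3963 in PS DEX libraries. All PS values were above all control values, at a log2 fold change of 0.33 ± 0.09 (adjusted p = 0.14). mt-Cytb had 173338, 186574, 192284 and 203199 in PS DEX libraries, all below the control DEX libraries, at -0.42 ± 0.14 (adjusted p = 0.21). Without AS saline 44 and AS DEX 60 in the shared spread, 22 members were called in this comparison (3.30% of all genes), 21 nuclear genes that were higher in PS mice by 0.18 to 0.52 and mt-Cytb, which was lower. They included Ndufa1, Cox7a2, Uqcrh, Atp5k and Ndufs5, from 4 complexes. With only the groups compared in the fit, 0 members were called.

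AS mice under DEX had the same sign in the nuclear genes. The median was 0.16 and 84 of 90 were above 0, and without AS DEX 60 the median was 0.063. By complex it was 0.18 in complex I, 0.16 in complex III, 0.20 in complex V and 0.12 in complex IV. limma called 0 members (0.867% of all genes), edgeR 0 and DESeq2 0, with 21 at an unadjusted p under 0.05 (17.4% against 13.4% of all genes), of which 20 were higher. The mitochondrial protein genes had a median of -0.09, which turned to 0.03 without AS DEX 38 and was -0.19 without AS DEX 60. Both comparisons use the 4 control DEX libraries, which held the lowest group mean of the nuclear members' reads, so that they are not independent. Oligodendrocyte markers were higher in value in PS and AS than in control mice under DEX (medians 0.28 and 0.38 over 6 genes, summed levels 30457 to 39239 and 31022 to 45760 against 25638 to 36871), and astrocyte markers lower (-0.24 and -0.18). None of these was called. The markers called for AS against control under DEX were vascular: Flt1 and Slco1a4 of 5 endothelial and Rgs5, Acta2 and Vtn of 5 mural markers fell, by 0.90, 0.93, 0.93, 1.64 and 0.60. Endothelial markers summed to 2788 to 4597 normalized counts in AS DEX and 4828 to 7386 in control DEX libraries, which do not overlap, and mural markers to 3315 to 4358 and 5156 to 7801. Endothelial and mural medians for PS against control under DEX were -0.54 and -0.40, with 0 called. None of the vascular markers was at 0. For all these markers, their part in the members' values was not tested.

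**Figure D5:**
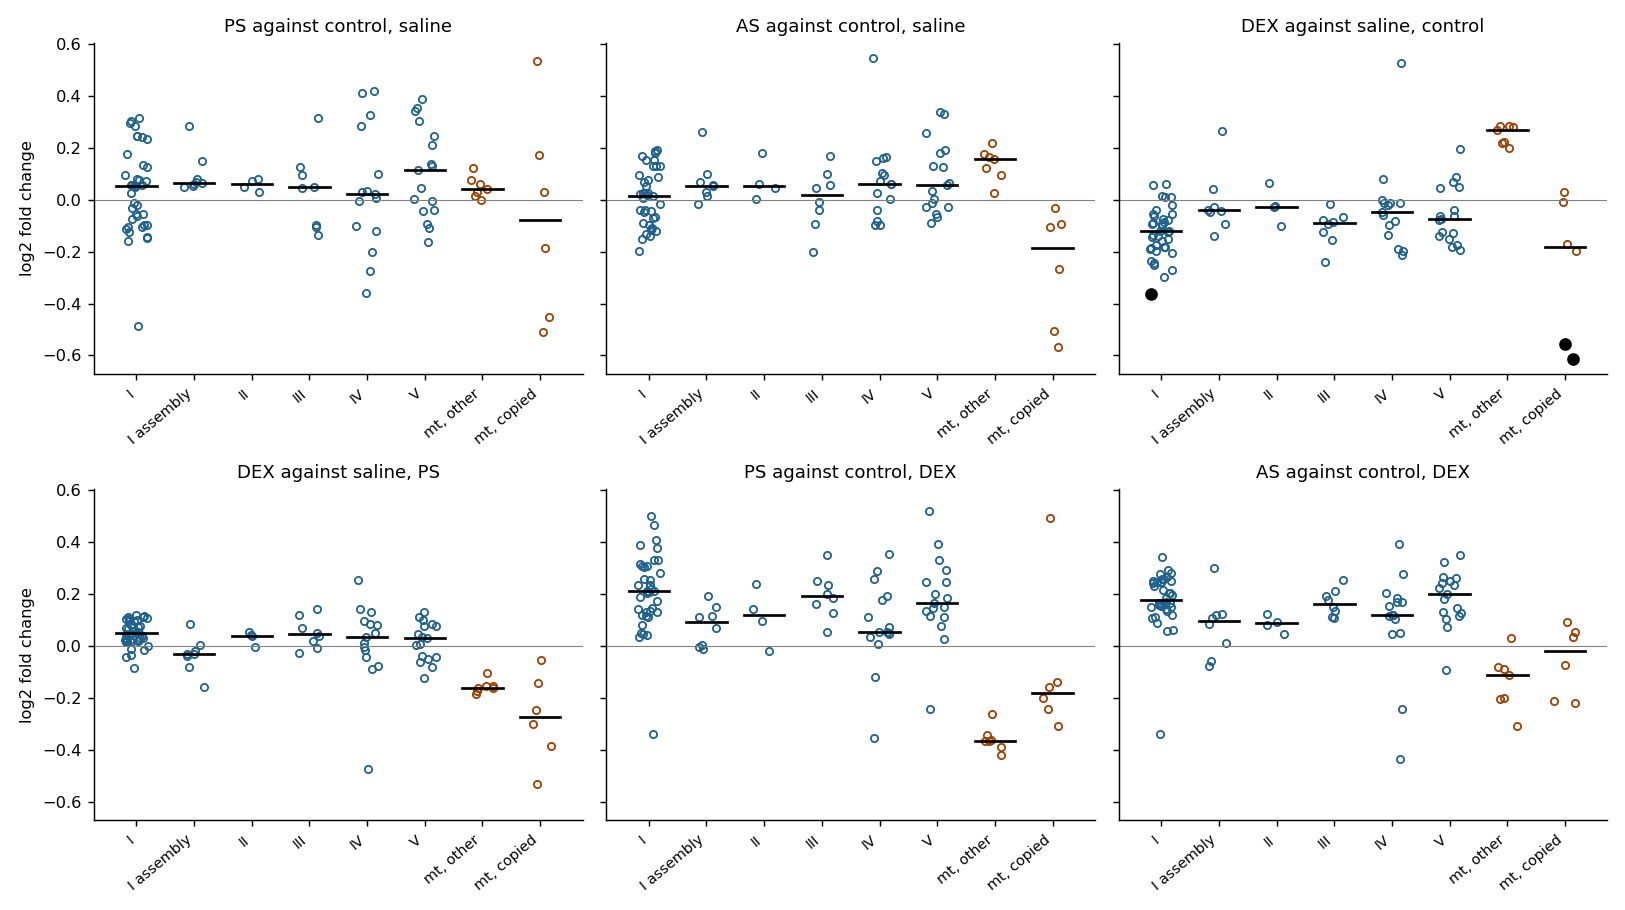
log2 fold change of each nuclear member by complex and of the mitochondrial protein genes, split into the 6 with a whole copy or between copies on chromosome 1 (mt, copied) and the other 7, in 6 comparisons. Filled black points passed an adjusted p under 0.1 (limma) and bars are medians; the nuclear medians sit below 0 for DEX in controls and above 0 for PS and AS against control under DEX.

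The differences between DEX responses were tested as interactions. For PS against control, limma called 0 members (0% of all genes), edgeR 0 and DESeq2 0, and 14 had an unadjusted p under 0.05 (11.6% against 9.98% of all genes). The median was 0.12 in nuclear members and -0.38 in mitochondrial protein genes, and mt-Te and mt-Tp had the largest values among members with an unadjusted p under 0.05, at -1.18 and -1.04 (adjusted p = 0.37 for both). For AS against control the counts were 0 by limma (0.348% of all genes), 0 by edgeR and 0 by DESeq2, with 11 at an unadjusted p under 0.05 (13.5% of all genes), and the medians were 0.13 and -0.19. There mt-Te was at -1.29 and mt-Tp at -0.71 (limma, adjusted p = 0.16 and 0.33), so that these values were not particular to PS mice. The PS and AS interactions use the same control libraries. For AS against PS, limma called 0 members (0% of all genes), edgeR 0 and DESeq2 0, and 0 had an unadjusted p under 0.05 (2.44% of all genes). With 1 library left out, the AS medians ranged from 0.02 to 0.22 in nuclear members and from -0.29 to -0.055 in mitochondrial protein genes, with the lowest nuclear value without AS DEX 60 and the mitochondrial value nearest 0 without AS DEX 38. For PS against control the nuclear median was 0.07 without PS DEX 34. Under quantile normalization the mitochondrial medians of the PS and AS interactions were 0.00 and 0.0065.

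By limma over all 24 libraries, paired isoforms gave no call in any comparison, while DESeq2 called Cox7a2 for PS against control under saline. Cox6a2, the muscle form of a complex IV subunit, had log2 fold changes of 0.34 for DEX in AS mice (adjusted p = 0.34) and 0.39 for AS against control under DEX (adjusted p = 0.35), and its common form Cox6a1 0.03 and 0.12. Cox6b2, known from testis, was at -0.47 and -0.52 for DEX in PS and AS mice (adjusted p = 0.47 and 0.30) against 0.01 and 0.10 for Cox6b1. The 3 genes for the c subunit of complex V, whose mature proteins are the same, did not move alike in value: for PS against control under DEX, Atp5g1 was at 0.25, Atp5g3 at 0.33 and Atp5g2 at -0.24 (adjusted p = 0.32, 0.26 and 0.26).

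Genes around oxidative phosphorylation were read from lists outside the members. With DEX, limma called 6.49% of all genes in controls, 5.36% in PS and 8.77% in AS mice. Of 11 carriers and uncoupling proteins, only Ucp2, an inner membrane carrier, was called, and it rose with DEX at log2 fold changes of 1.16 in controls, 0.76 in PS and 0.62 in AS mice (adjusted p of at most 0.0063). Of 13 nuclear regulators of mitochondrial genes measured, Ppargc1a, a coactivator of mitochondrial biogenesis, and Esrrg, a nuclear receptor that works with it, rose with DEX in AS mice by 0.55 and 0.61 (adjusted p = 0.00084 and 0.014). In controls only Nrf1 was called, higher by 0.24 (adjusted p = 0.081), and in PS mice 0 of 13 were called. A call in a single kind of mouse is not a difference between kinds, and neither Ppargc1a nor Esrrg was called in an interaction. Of 18 genes of the tricarboxylic acid cycle and pyruvate dehydrogenase, Idh2 rose with DEX in controls by 0.41 (adjusted p = 0.013). Of 6 kinases and phosphatases of pyruvate dehydrogenase, Pdk2 rose and Pdk1 fell with DEX in PS mice, by 0.21 each.

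Calls in the lists of the expression machinery are given beside the share of all genes called. Polrmt, the mitochondrial RNA polymerase, fell in PS against control under saline by 0.26 (adjusted p = 0.064), the sole call among 12 genes of mitochondrial transcription and replication, where 1.51% of all genes were called. Among 14 genes of mitochondrial RNA processing, Fastkd1 fell with DEX in controls by 0.28 and Fastkd3 rose in AS mice by 0.33, where 6.49% and 8.77% of all genes were called. Of 77 mitochondrial ribosomal proteins only Mrpl41 was called (AS mice, DEX, 0.32), while the list's median was 0.10 for PS and 0.14 for AS against control under DEX. Of 36 assembly factors for complexes II to V only Atpaf1 was called (AS mice, DEX, 0.28), and of 16 electron carriers and feeders only Dhodh (PS mice, DEX, 0.24). Of the 92 Rpl and Rps genes, 6 were called for PS against control under saline. Rpl39, Rps27, Rps27a, Rplp2 and Rpl22 rose by 0.64, 0.59, 0.53, 0.51 and 0.31, and Rps27rt fell by 2.11 on the log2 scale. Rps27rt was also called lower in AS than in control mice under saline (-1.79) and with DEX in controls (-1.84). All of these comparisons use the control saline libraries, so that its fall was not particular to PS mice. The list had medians of 0.16 and 0.18 for PS and AS against control under saline, where the nuclear members were at 0.05 and 0.03.

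The promoters of the nuclear members were read from RefSeq (GRCm38.p6), from 250 bases before to 50 after the start, and 73 of 90 had an entry. The letters of nuclear respiratory factor 1, GCGCATGCG on either strand, stood in 10 of 73 (13.7%) against 1.81% of 27025 promoters. The YY1 letters AANATGGC stood in 21.9% against 6.23%, with 11 of the 16 in complex I, and the ETS letters CCGGAAG in 24.7% against 9.12%. The promoters were richer in G and C, with a median of 58.7% against 52.7%. For the half-site of the glucocorticoid receptor, TGTTCT, the shares were 13.7% and 19.0%. Shown are 2 members that were higher in PS than in control mice under DEX when 2 AS libraries were left out, Atp5k with the first motif and Cox7b with the YY1 letters read on the other strand, both in capitals.
Atp5k (chr5:108434350-108434649, minus strand): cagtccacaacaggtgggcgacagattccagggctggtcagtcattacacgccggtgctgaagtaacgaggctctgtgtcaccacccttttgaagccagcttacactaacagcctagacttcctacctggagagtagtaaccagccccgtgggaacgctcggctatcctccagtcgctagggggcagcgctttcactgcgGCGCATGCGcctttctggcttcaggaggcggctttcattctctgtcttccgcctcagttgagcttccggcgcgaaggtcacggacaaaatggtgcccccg
Cox7b (chrX:106015450-106015749, plus strand): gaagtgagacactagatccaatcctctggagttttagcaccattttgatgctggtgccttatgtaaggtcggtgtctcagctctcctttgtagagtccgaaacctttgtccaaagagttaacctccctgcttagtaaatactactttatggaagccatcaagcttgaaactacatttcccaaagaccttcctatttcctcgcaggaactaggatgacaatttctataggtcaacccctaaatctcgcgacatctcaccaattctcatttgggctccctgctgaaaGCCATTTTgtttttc
These letters describe the sequence, and binding was not measured.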

How the data were processed

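The PFC of 24 mice was profiled by strand-specific poly(A) RNA-seq, 4 mice in each of 6 groups. Per the labels and the study's methods, the authors trimmed reads with fastp 0.20.1, aligned them to mm10 with HISAT2 2.2.1, counted them on GENCODE genes with featureCounts (Subread 2.0) and deposited counts that DESeq2 1.36.0 had divided by a size factor per library, so that the values are a signal relative to depth. How reads with several best positions were counted is not given in the sources used here. The deposited tables of comparisons hold fold changes and p-values of the authors, which were not used. From them only gene positions and classes were taken, and all 121 members had the same start and end in GENCODE M21.

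Dividing each deposited count by what a single read was worth in its library gave whole reads for 100% of values (tolerance 0.01). limma 3.58.1 (R 4.3.3) was fitted to log2(normalized count + 1) over all 14074 genes and 24 libraries with a mean per group, without a filter. A gene was called where its p, adjusted by Benjamini and Hochberg over all genes, was under 0.1. Fold changes on this scale understate those of low genes. On simulated counts of 14074 genes with 200 changed, limma recovered 88% of the 2-fold and 71% of the 1.5-fold changes for PS against control under saline, and 12.2% of its calls were false. Each gene was drawn independently there, without shifts shared by many genes of a library. Those rates therefore need not hold for the members, whose differences were mostly smaller.

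Alternatives were a pseudocount of 8, a mean of at least 100 normalized counts, quantile normalization, a covariate for library size (log2), a fit to only those groups being compared, each library left out, and count tests of recovered reads with edgeR 4.0.16 and DESeq2 1.42.0. Chosen after seeing the data were leaving out AS saline 44 with AS DEX 60 and summing mitochondrial genes with their chromosome 1 copies. Named genes were every mitochondrial protein gene, the members called, the largest values of a comparison, the highest and lowest of each complex, isoform pairs and the called genes of other lists; others were named after their values were seen. Members and lists were chosen with earlier results of these data known. Levels per kb use the longest coding transcript of GENCODE M21. List levels per library are means of log2 values centred on the 24 libraries.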

Additional observations from a re-analysis of the deposited data

Results flagged for a closer look

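Of the 4 AS saline libraries, that of mouse 44 had 0.989% of its reads on nuclear members, and its gap to the nearest of the others was 0.916 of the group's range. In the control DEX group the library of mouse 108 had 13.2 normalized counts of mt-Te, below the other 3 (gap 0.879 of the range). In the AS DEX group the library of mouse 38 had 26.9 normalized counts of mt-Te, above the other 3 (gap 0.886 of the range). The critical value for 4 samples is 0.829, and chance passes it in about 1 of 20 groups. It was applied to 48 sets of values, 8 measures in each of 6 groups, so that a few such gaps would arise by chance alone.

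The share of reads on mitochondrial protein genes moved opposite ways with DEX in control and PS mice. Relative to the saline mean, the DEX libraries of control mice averaged 0.804 percentage points higher, with each of the 4 above it, and those of PS mice averaged -0.427 points, with each of the 4 below it. The difference between these 2 responses of the share was not tested.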

How the results depend on the processing

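Mouse numbers differ between groups. No paired analysis was possible because the groups compared share no replicate numbers.

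For PS against control under saline, 13 members were called with only the groups compared in the fit. DESeq2 called 4 members, and 431 of all 14074 genes. Where genes averaging under 100 normalized counts were dropped, 0 members were called. That filter took out both genes of the main result, mt-Te and mt-Tp, so that neither could be called. Without AS saline 44 and AS DEX 60, 10 members were called (4.07% of all genes). For PS against control under DEX, DESeq2 called 6 members, and 225 of all 14074 genes. Without those 2 libraries 22 members were called (3.30% of all genes). Leaving out both also gave 10 for DEX in controls (8.40% of all genes), 1 in PS and 3 in AS mice. It gave 1 for AS against control under saline and 4 for the AS by DEX interaction. Summing mitochondrial genes with their copies left 2 for DEX in controls. With each library left out, the number called ranged from 0 (without PS saline 2) to 4 (without AS saline 44) for PS against control under saline, and from 0 (without control saline 106) to 5 (without AS saline 44) for DEX in controls. It ranged from 0 to 1 (without PS saline 68) for DEX in PS mice, from 0 to 6 (without AS saline 44) for DEX in AS mice, from 0 to 4 (without AS DEX 60) for PS and from 0 to 2 (without AS saline 44) for AS against control under DEX, and from 0 to 7 (without AS saline 44) for the AS by DEX interaction. Where no number or share of all genes stands beside a count here, none was worked out, and that count is not a result about the members.

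Quantile normalization brought the median log2 fold change of mitochondrial protein genes to 0.00 for DEX in controls and for the PS by DEX interaction, and to 0.0065 for the AS by DEX interaction. It assigns equal values to equal ranks, and 6 of these 13 genes are among the 12 highest of the table. Summed with their copies, mt-Atp6 turned to 0.26 for PS against control under saline and mt-Nd4l to 0.13 for DEX in controls. For DEX in AS mice, Atp5md ranged from -0.0055 to 0.35 with a library left out. Over all alternatives, 1054 counts of members called and medians stayed the same, 22 counts were larger, 10 were smaller and 3 medians moved. A count was taken as the same when it stayed near the main one. A median was taken as the same when it moved by less than the pooled SD within groups, so that its sign could change. That SD was 0.144 for nuclear members and 0.178 for mitochondrial protein genes. Among single members called in any setting, 4 fold changes reversed sign.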
